A study of Homo sapiens with 34 samples.

Results

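Expression was compared between CD43+ cells sorted on day 12 and CD43+ cells sorted on day 9 of blood formation from H1 human embryonic stem cells. With 3 replicates per day, 6 of the 34 samples of the series carry the comparison, and all genes of the table were considered. H1 is an established embryonic stem cell line, and all samples derive from this 1 line. Embryoid bodies were attached in BMP4 and VEGF, after which VEGF was the only growth factor supplied and no haematopoietic cytokine was added. CD43 (leukosialin, gene SPN) is a surface sialoglycoprotein that marks early blood cells, and CD43+ and CD43- fractions were separated by fluorescence-activated sorting. CD43- cells of the same days (6 samples) are the comparison population, and CD43+ cells of day 6 and CD43+/CD45+ cells of day 16 are given side by side. Each sample is a bulk mixture, so fewer cells of a type and less RNA per cell cannot be told apart.

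The first wave of human blood is made in the yolk sac and gives primitive erythroid cells, which carry embryonic globins, together with macrophages and megakaryocytes. Erythro-myeloid progenitors follow and add granulocytes, whose azurophil granules are filled at the promyelocyte stage and whose specific and gelatinase granules are filled later. Erythroid cells depend on the transcription factors GATA1 and KLF1, whereas granulocytes and monocytes depend on PU.1 (gene SPI1) and the C/EBP family.

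The values are GC-normalized tag counts forced to 1 distribution, so that every sample has the same sum (17856940.0), median gene (197.0) and highest value (90700.0). Sequencing depth is therefore unknown, and a gene at the ceiling of 90700 could not be seen to rise further. Of 20255.0 genes, 19788.0 were tested with limma on log2(value + 1). A gene was called at a Benjamini-Hochberg adjusted p below 0.05 over all genes tested and a fold change above 4. Changes are log2 fold changes on that scale with their standard error (SE), and they understate the change of low genes. The replicates were prepared independently. The p-values rest on 1 spread per gene, estimated between replicates over all 11 groups and not over the 6 samples alone. A gene uneven in another group can thus miss a call although its days do not overlap. Replicates correlated at r = 0.980 to 0.983 on day 9 and 0.967 to 0.977 on day 12, and samples of different days at 0.862 to 0.900. The RNA was sequenced at 2 companies, and the sources used here do not say which sample went where, so day and sequencing run cannot be told apart. In 64 genes the 6 sorted samples of day 12, CD43+ and CD43- alike, lay over 4-fold beyond all 18 other sorted samples (61 higher, 3 lower). Of these, 48 had clone-based names, 13 were protein-coding, 3 were both and 6 were neither, and none of the 346 tested list genes was among them.

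In CD43+ cells, 2968 genes were called between the days (15.0%). Of these, 1673 were higher on day 12 (8.45% of genes tested) and 1295 lower (6.54%), and the median change over all genes was -0.15. Red cell genes fell, and genes of granulocytes, eosinophils and macrophages rose. All 11 haemoglobin genes were called lower, and 12 of 14 azurophil granule genes were called higher. Each list below is given by its calls and median, to be read against these percentages and this median. SPN, the gene of the sorting marker, was at 9460, 8946 and 9202 on day 9 and 4458, 7132 and 6791 on day 12 (-0.62, SE 0.37, adjusted p = 0.159). PTPRC, which encodes the pan-leucocyte marker CD45, rose from 749, 634 and 698 to 12848, 8975 and 6920 (3.74, SE 0.92, adjusted p = 0.00112). SPN was thus high in every sample, while the PTPRC values of the days did not overlap.

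**Figure D1:**
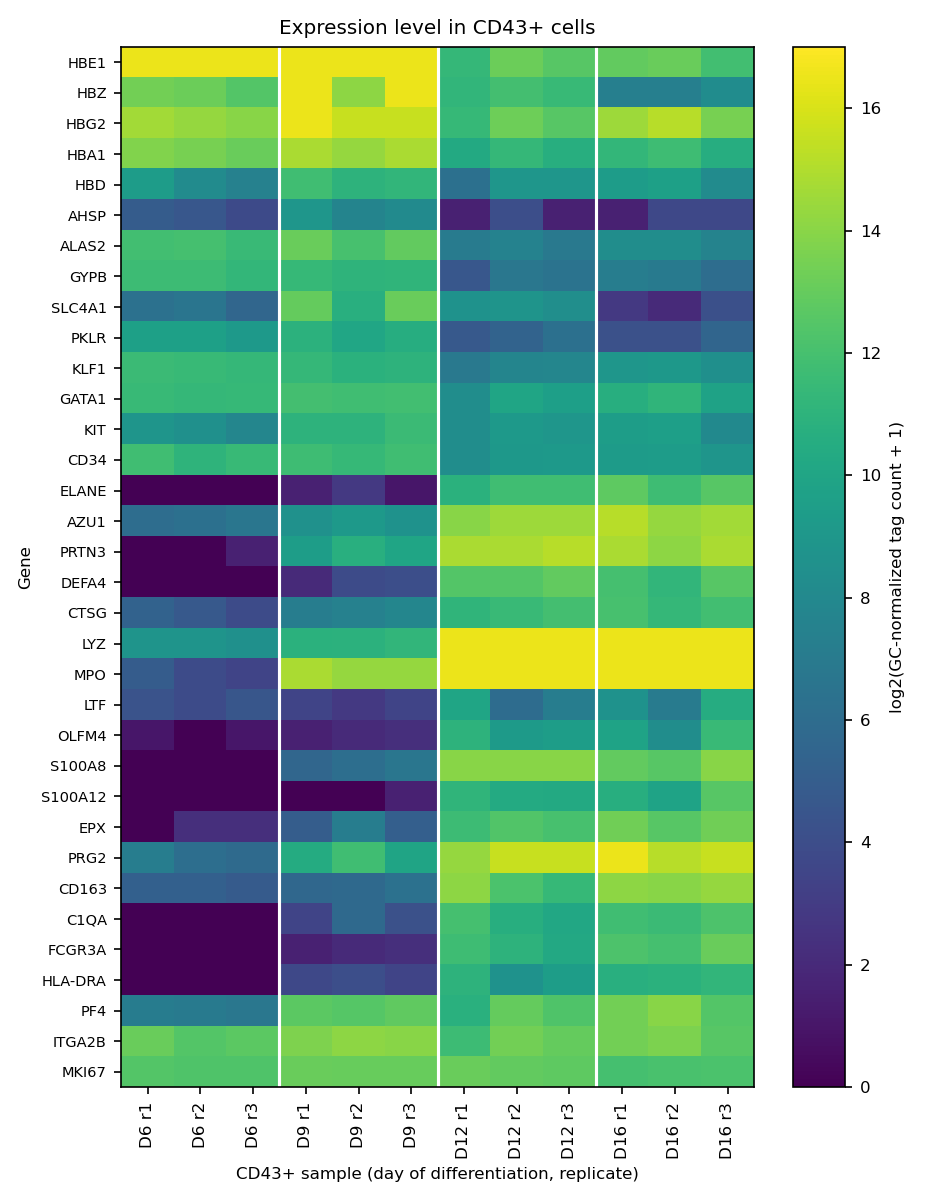
Level of 34 named genes in the CD43+ samples as log2(GC-normalized tag count + 1), with genes in rows and the 12 samples in columns, ordered by day (6, 9, 12 and 16, the last sorted as CD43+/CD45+) and replicate. Between day 9 and day 12 the colours of globin and red cell membrane genes move towards low values and those of granule, S100 and macrophage genes towards high values.

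Haemoglobin genes fell. The list holds the globin chains and AHSP, the chaperone of alpha chains, and all 11 members were called lower, with a median of -3.89 and a range from -5.83 to -3.16. HBE1, the embryonic beta-like chain, fell from 90700 in all 3 samples to 2618, 9248 and 6256 (-4.09, SE 0.67, adjusted p = 1.0e-05). Its day 9 values were capped at the ceiling. HBZ, the embryonic alpha-like chain, fell from 90700, 17338 and 90700 to 2378, 3854 and 2770 (-4.15, SE 0.85, adjusted p = 0.000165), and HBG2, a fetal gamma chain, fell from 90700, 48030 and 48030 to 2700, 9714 and 6064 (-3.45, SE 0.93, adjusted p = 0.00266). Embryonic and fetal chains were thus lower in each day 12 sample than in any day 9 sample. HBA1, an alpha chain, fell from 29000, 20394 and 29000 to 1260, 2549 and 1651 (-3.89, SE 1.34, adjusted p = 0.0156). The adult chains were lower too. HBD, the delta chain, fell from 3576, 2012 and 2316 to 77, 498 and 497 (-3.25, SE 0.61, adjusted p = 6.28e-05), and HBB, the adult beta chain, which was low on both days, fell from 42, 27 and 22 to 1, 0 and 1 (-4.25, SE 0.51, adjusted p = 8.23e-08). AHSP fell from 486, 204 and 281 to 2, 16 and 2 (-5.83, SE 0.60, adjusted p = 6.78e-09). The split of reads within the HBA1/HBA2 pair and the HBG1/HBG2 pair is uncertain, because each pair is nearly identical in sequence. HBA2 (-3.71) and HBG1 (-3.16) were called lower as well. With an added constant of 0.1, HBA1, HBG1 and HBG2 were not called (adjusted p = 0.116, 0.0573 and 0.0782).

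All 12 haem biosynthesis genes were lower in every day 12 sample than in any day 9 sample (35.6% of all genes were), but only ALAS2, CPOX and FECH were called, and the median was -1.22. ALAS2, the erythroid rate-limiting enzyme, had the largest fall, from 8671, 4234 and 7764 to 131, 187 and 115 (-5.53, SE 0.51, adjusted p = 9.77e-10). FECH, which inserts iron into the ring, fell from 3780, 1854 and 3204 to 878, 700 and 568 (-2.0, SE 0.17, adjusted p = 3.05e-10). This lay at the fold threshold, and the call was lost without day 9 replicate 1 (-1.79), day 9 replicate 3 (-1.91), day 12 replicate 2 (-2.0) or day 12 replicate 3 (-1.85), under median-of-ratios scaling (-1.83) and with an added constant of 10 (-1.99). SLC25A37, the mitochondrial iron importer mitoferrin, went from 10446, 6592 and 11204 to 3167, 3862 and 3822 (-1.35, SE 0.14, adjusted p = 5.74e-09), under the fold threshold.

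The red cell membrane list, which holds glycophorins, spectrins, ankyrin, band 3 and Rh proteins, had 15 of 22 members called lower and 0 higher, with a median of -2.89. GYPB, glycophorin B, fell from 2704, 2098 and 2188 to 24, 104 and 88 (-5.23, SE 0.50, adjusted p = 2.33e-09). ANK1, which anchors the skeleton to the membrane, fell from 4790, 3118 and 4041 to 251, 647 and 472 (-3.2, SE 0.45, adjusted p = 1.08e-06), and SLC4A1, the anion exchanger band 3, fell from 8272, 1686 and 8797 to 405, 452 and 338 (-3.65, SE 0.68, adjusted p = 5.91e-05). RHAG, the Rh-associated glycoprotein, fell from 4710, 5032 and 4839 to 206, 1009 and 630 (-3.25, SE 0.64, adjusted p = 9.71e-05). The days did not overlap for any of these genes. Day 9 replicate 2 was the lowest of its day for SLC4A1, GYPB and ALAS2, and its mean log2 level over the membrane list was 9.63 against 10.4 and 10.3.

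Of 14 erythroid regulators 2 were called lower and 0 higher, with a median of -1.61. KLF1, an erythroid activator of globin genes, fell from 2612, 1828 and 2074 to 114, 216 and 218 (-3.61, SE 0.44, adjusted p = 1.31e-07), and GATA1 fell from 3858, 3487 and 3720 to 321, 1012 and 782 (-2.54, SE 0.62, adjusted p = 0.00105). EPOR, the erythropoietin receptor, went from 1387, 902 and 1183 to 326, 332 and 324 (-1.8, SE 0.16, adjusted p = 4.75e-10), under the fold threshold although its values did not overlap. Without day 12 replicate 2, 4 regulators were called lower. Of 8 globin switching and fetal RNA binding genes, 1 was called lower. LIN28A, an RNA-binding protein that blocks let-7 maturation, fell from 1959, 2210 and 2034 to 120, 311 and 226 (-3.34, SE 0.40, adjusted p = 8.89e-08). Its relative LIN28B went from 3209, 3458 and 3281 to 1146, 1460 and 1414 (-1.31, SE 0.15, adjusted p = 3.19e-08), and BCL11A, a repressor of fetal globin, went from 188, 107 and 214 to 130, 94 and 178 (-0.33, SE 0.30, adjusted p = 0.377).

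Among 11 red cell enzymes 2 were called lower, with a median of -1.23. PKLR, the erythroid and liver pyruvate kinase, fell from 1983, 1044 and 1520 to 26, 41 and 75 (-5.05, SE 0.42, adjusted p = 1.68e-10), and CA1, carbonic anhydrase 1, fell from 226, 155 and 258 to 6, 22 and 12 (-4.03, SE 0.68, adjusted p = 1.66e-05). Its relative CA2 went from 734, 688 and 678 to 247, 436 and 262 (-1.2, SE 0.37, adjusted p = 0.00803). Iron handling was divided, with 1 of 12 members called higher, 1 lower and a median of -0.21. TFR2, a transferrin receptor, fell from 1161, 830 and 679 to 64, 200 and 182 (-2.7, SE 0.45, adjusted p = 1.38e-05). HFE, a partner of transferrin receptors, rose from 40, 46 and 26 to 446, 144 and 160 (2.55, SE 0.39, adjusted p = 4.29e-06). TFRC, the main transferrin receptor, went from 14665, 11495 and 10817 to 7024, 9227 and 8262 (-0.59, SE 0.25, adjusted p = 0.0461), the iron exporter SLC40A1 changed by -1.13 and the ferritin chain FTL by 0.45, none of which was called.

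The bases before the start of transcription are shown for 3 erythroid genes that fell, because they hold letters that GATA factors are known to bind. EPB42, protein 4.2 of the red cell skeleton, is one of them (-5.43), chosen after its values were seen. Each run is the 250 bases upstream of the RefSeq start in GRCh38.p14, read 5′ to 3′ on the strand of the gene. Capitals mark the word AGATAA, the word AGATAG, the word TGATAA or the word TGATAG, on either strand. ALAS2 lies at chrX:55030978-55031227, EPB42 at chr15:43221019-43221268 and PKLR at chr1:155301439-155301688, all on the minus strand.
ALAS2: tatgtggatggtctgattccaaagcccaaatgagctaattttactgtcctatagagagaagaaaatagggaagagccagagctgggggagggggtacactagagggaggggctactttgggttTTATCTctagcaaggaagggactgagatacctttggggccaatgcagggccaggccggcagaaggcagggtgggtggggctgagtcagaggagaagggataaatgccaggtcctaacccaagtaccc
EPB42: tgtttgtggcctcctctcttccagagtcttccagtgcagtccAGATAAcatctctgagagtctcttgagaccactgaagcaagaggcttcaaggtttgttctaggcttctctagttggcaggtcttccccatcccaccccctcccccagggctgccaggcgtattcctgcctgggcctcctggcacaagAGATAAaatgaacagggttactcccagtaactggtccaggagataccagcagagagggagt
PKLR: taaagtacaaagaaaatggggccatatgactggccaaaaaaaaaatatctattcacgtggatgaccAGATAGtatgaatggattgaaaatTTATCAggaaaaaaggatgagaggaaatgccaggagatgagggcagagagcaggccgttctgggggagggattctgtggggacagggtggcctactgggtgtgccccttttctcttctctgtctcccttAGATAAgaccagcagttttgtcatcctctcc
The match in ALAS2 begins 127 bases before the start, those in EPB42 208 and 61 bases and those in PKLR 184, 160 and 31 bases before it. At least 1 of the words was present in 22.9% of the 27305 promoters of the table and in 15.15% of the 12952 matched to a tested gene. Of matched members it was present in 10 of 16 red cell membrane, 2 of 9 haem biosynthesis, 1 of 5 azurophil granule and 7 of 11 megakaryocyte genes. Other red cell lists held it in 3 of 12 erythroid regulator and 1 of 9 red cell enzyme genes. Lists that rose held it too, in 3 of 7 eosinophil, 4 of 11 monocyte and macrophage and 7 of 20 myeloid receptor genes. It was present in 19.69% of matched genes called lower and 21.4% of those called higher. A match of letters is a description and not a site.

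**Figure D2:**
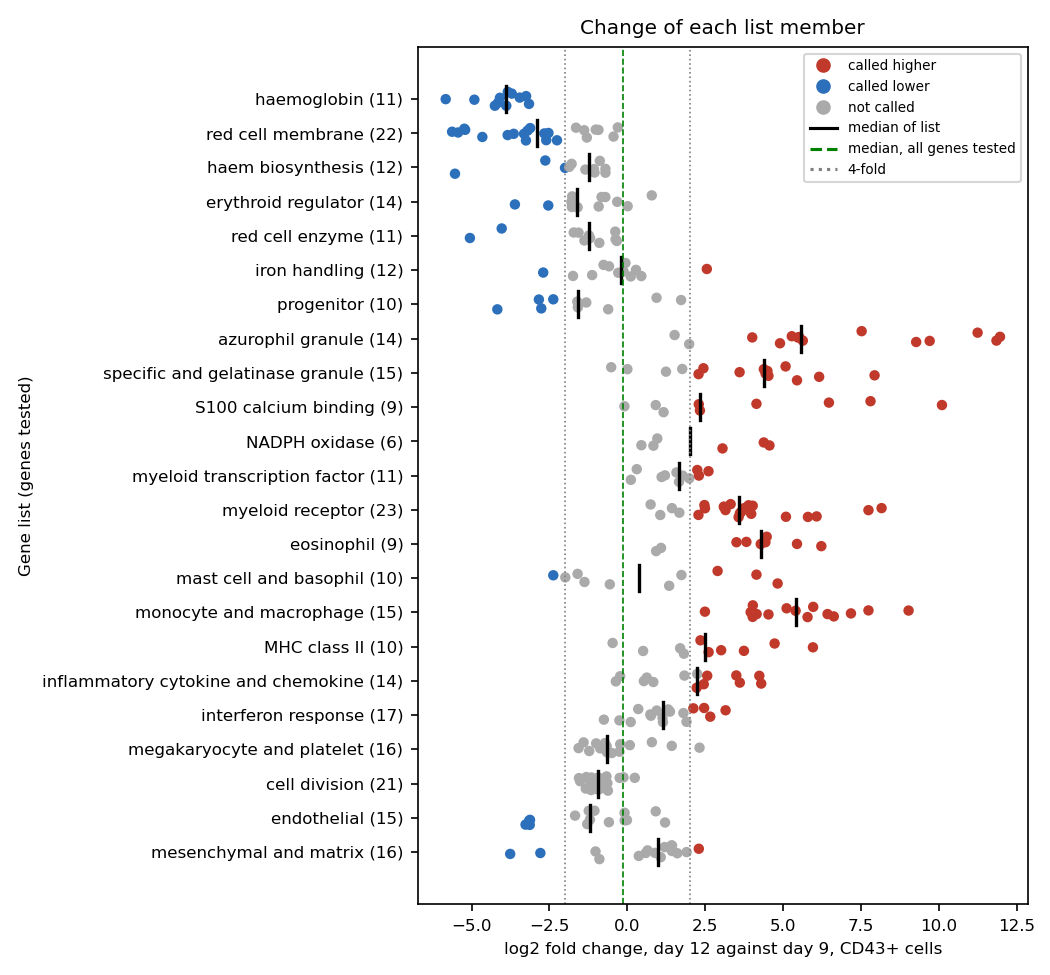
Log2 fold change in CD43+ cells, day 12 against day 9 (x axis), of every tested member of 23 gene lists (y axis). Each point is a gene coloured by whether it was called, black bars are list medians, the dashed line is the median of all genes tested (-0.15) and dotted lines mark 4-fold. The haemoglobin genes lie left of the lower dotted line and the monocyte and macrophage genes right of the upper one.

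Azurophil granule genes rose. The list holds proteases, defensins and enzymes packed at the promyelocyte stage, and 12 of its 14 members were called higher, with a median of 5.57. All 14 were higher in every day 12 sample than in any day 9 sample (26.6% of all genes were). ELANE, neutrophil elastase, rose from 2, 6 and 1 to 1856, 3605 and 3605 (9.7, SE 0.55, adjusted p = 1.76e-13). AZU1, the antimicrobial protein azurocidin, rose from 390, 552 and 400 to 15842, 22812 and 22812 (5.51, SE 0.60, adjusted p = 1.67e-08). PRTN3, proteinase 3, rose from 697, 1677 and 1010 to 29015, 29015 and 37178 (4.9, SE 1.27, adjusted p = 0.00182). ELANE was thus near 0 on day 9, and none of these genes overlapped between the days. CTSG, cathepsin G, rose from 146, 178 and 224 to 2185, 2900 and 3877 (4.01, SE 0.80, adjusted p = 0.000136), and MS4A3, a membrane protein of granulocyte progenitors, rose from 186, 151 and 219 to 5644, 10446 and 12854 (5.63, SE 0.75, adjusted p = 5.16e-07). LYZ, lysozyme, rose from 1851, 1960 and 2340 to 90700 in all 3 samples (5.47, SE 1.04, adjusted p = 6.92e-05), which is the ceiling. MPO, myeloperoxidase, went from 29015, 20412 and 20412 to 90700 in all 3 samples (1.98, SE 1.0, adjusted p = 0.0954), a change limited by the ceiling. Its days did not overlap, yet it was not called, and a fit of only the populations compared gave an adjusted p of 0.00104 with the same change, under 4-fold.

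Defensins, the antimicrobial peptides of the same granules, had the largest rises among the genes named here together with S100A12 and ELANE. DEFA4 rose from 3, 14 and 16 to 5700, 5478 and 7626 (9.27, SE 0.79, adjusted p = 2.69e-10). DEFA3 rose from 0, 1 and 0 to 6002, 4374 and 4779 (11.96, SE 0.71, adjusted p = 3.28e-13) and DEFA1 from 0, 2 and 0 to 4112, 2788 and 3682 (11.24, SE 0.70, adjusted p = 9.22e-13). DEFA1B was listed at 0 in all 3 samples of day 9 and stood at 4326, 3080 and 3717 on day 12. DEFA1, DEFA1B and DEFA3 are nearly the same in sequence, so the split among them is uncertain.

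Specific and gelatinase granule genes, filled later in maturation, rose less evenly. Of 15 tested 11 were called higher, with a median of 4.38 (3.37 without day 12 replicate 1), and MMP8, at 0 in all 3 day 9 samples and 10, 2 and 0 on day 12, fell under the filter on low values. LTF, lactoferrin, rose from 10, 6 and 10 to 1014, 64 and 146 (4.49, SE 0.78, adjusted p = 2.35e-05), and OLFM4, a granule glycoprotein, rose from 2, 3 and 4 to 2024, 622 and 691 (7.93, SE 0.61, adjusted p = 4.2e-11). CAMP, the cathelicidin precursor, went from 2 in all 3 samples to 41, 4 and 4 (1.76, SE 0.63, adjusted p = 0.0202). Day 12 replicate 1 was the highest sample for these genes, and CAMP was called when day 12 replicate 2 or 3 was left out (2.27 each). MMP9, gelatinase B, went from 546, 1140 and 894 to 4608, 1491 and 1066 (1.24, SE 0.57, adjusted p = 0.0678). LCN2, the siderophore-binding lipocalin, went from 168, 128 and 158 to 64, 180 and 99 (-0.52, SE 0.59, adjusted p = 0.474), and its days overlapped.

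Of 9 S100 calcium-binding genes 6 were called higher, with a median of 2.33. S100A8 and S100A9 form calprotectin, a main cytosolic protein of neutrophils. S100A8 rose from 48, 70 and 101 to 15794 in all 3 samples (7.8, SE 0.95, adjusted p = 1.2e-07), and S100A9 rose from 332, 398 and 560 to 37130, 28960 and 47984 (6.47, SE 0.73, adjusted p = 3.01e-08). S100A12, an alarmin of the same cells, rose from 0, 0 and 2 to 2220, 1362 and 1293 (10.09, SE 0.59, adjusted p = 2.52e-13). All of these were low on day 9 beside day 12. Of 6 subunits of the phagocyte NADPH oxidase, which makes superoxide, 3 were called higher, with a median of 2.01. CYBB, the catalytic subunit, rose from 950, 1154 and 888 to 29026, 17368 and 17368 (4.38, SE 0.90, adjusted p = 0.000171), and the cytosolic subunit NCF1 (3.05) was called too.

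Promoter bases are shown for 3 genes that rose and hold the word TTGNNCAA, where N is any base. C/EBP factors are known to bind words of this form. Build, length and direction are as for the erythroid genes, and capitals mark that word. AZU1 lies at chr19:827587-827836 and PRTN3 at chr19:840749-840998, both on the plus strand, and S100A12 at chr1:153375622-153375871 on the minus strand.
AZU1: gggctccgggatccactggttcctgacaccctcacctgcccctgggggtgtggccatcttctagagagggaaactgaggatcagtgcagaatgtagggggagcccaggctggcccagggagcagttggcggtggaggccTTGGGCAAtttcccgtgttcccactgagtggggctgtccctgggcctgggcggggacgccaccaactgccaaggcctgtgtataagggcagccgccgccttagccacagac
PRTN3: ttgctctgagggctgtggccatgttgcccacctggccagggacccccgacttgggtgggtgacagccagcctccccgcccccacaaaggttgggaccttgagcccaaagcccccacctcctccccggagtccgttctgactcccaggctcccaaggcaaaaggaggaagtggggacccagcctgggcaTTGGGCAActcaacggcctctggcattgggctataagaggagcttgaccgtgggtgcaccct
S100A12: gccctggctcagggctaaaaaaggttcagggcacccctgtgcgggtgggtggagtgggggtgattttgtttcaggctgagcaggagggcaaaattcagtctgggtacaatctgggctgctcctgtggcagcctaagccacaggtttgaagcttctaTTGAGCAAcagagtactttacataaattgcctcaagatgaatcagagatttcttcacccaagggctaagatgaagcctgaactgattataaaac
The word begins 111 bases before the start of AZU1, 62 before that of PRTN3 and 94 before that of S100A12. It was present in 5.03% of all promoters of the table, 3.88% of those matched to a tested gene, 5.8% of matched genes called higher and 4.505% of those called lower. Of matched members 2 of 5 azurophil, 3 of 11 specific and gelatinase granule and 0 of 16 red cell membrane genes held it. So did 1 of 9 haem biosynthesis, 1 of 9 red cell enzyme, 1 of 12 erythroid regulator and 2 of 16 cell division genes. Among other lists that rose, 2 of 7 eosinophil, 1 of 20 myeloid receptor and 0 of 9 myeloid transcription factor genes held the word. The word GAGGAA, a core of PU.1 binding read on both strands, was present in 23.41% of all promoters, 23.67% of those matched to a tested gene, 29.14% of matched genes called higher and 23.81% of those called lower.

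Among 11 myeloid transcription factors 3 were called higher (CEBPE, IRF5 and IRF8), with a median of 1.66. CEBPE, which drives late granule genes, rose from 99, 169 and 120 to 590, 604 and 680 (2.3, SE 0.59, adjusted p = 0.00168). IRF5, an interferon regulatory factor, rose from 194, 223 and 170 to 1756, 1061 and 896 (2.6, SE 0.63, adjusted p = 0.00099). SPI1 went from 2095, 2194 and 2264 to 7746, 5870 and 6052 (1.57, SE 0.90, adjusted p = 0.14). Its days did not overlap, but the shared spread takes in CD43- cells, at 3, 203 and 486 on day 12. CEBPA changed by 1.1, SE 0.24, adjusted p = 0.000341 and CEBPB by 1.66, SE 0.20, adjusted p = 1.2e-07, without a call. GFI1, a repressor in granulocyte progenitors, went from 888, 945 and 1110 to 852, 1518 and 1348 (0.30, SE 0.47, adjusted p = 0.61). Without day 9 replicate 2, 5 factors were called higher.

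Myeloid surface receptors had 19 of 23 members called higher and 0 lower, with a median of 3.57. CSF3R, the G-CSF receptor, rose from 1046, 930 and 791 to 8946, 9202 and 9202 (3.31, SE 0.35, adjusted p = 1.29e-08). ITGAM, the integrin chain CD11b, rose from 196, 154 and 124 to 2675, 1158 and 858 (3.15, SE 0.74, adjusted p = 0.000735), and its partner ITGB2 rose from 1278, 1466 and 1253 to 14678, 10080 and 10080 (3.1, SE 0.53, adjusted p = 1.96e-05). FCGR3B, the neutrophil form of CD16, rose from 4, 0 and 0 to 802, 470 and 306 (8.16, SE 0.60, adjusted p = 1.72e-11), and its split from the closely related FCGR3A is uncertain. CD33, a sialic acid-binding lectin, went from 632, 714 and 633 to 1164, 1064 and 1089 (0.75, SE 0.69, adjusted p = 0.373). Its days did not overlap either.

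Eosinophil genes rose, 7 of 9 being called higher with a median of 4.28. EPX, eosinophil peroxidase, rose from 32, 148 and 34 to 3172, 5292 and 4269 (6.22, SE 0.88, adjusted p = 1.19e-06). PRG2, the major basic protein, rose from 1378, 3460 and 989 to 20431, 48061 and 48061 (4.43, SE 1.35, adjusted p = 0.00676), though not with an added constant of 0.1 (adjusted p = 0.0949). RNASE2, the eosinophil-derived neurotoxin, rose from 198, 186 and 212 to 3244, 4786 and 5558 (4.47, SE 0.80, adjusted p = 3.46e-05), and CLC, the Charcot-Leyden crystal protein, rose from 214, 404 and 142 to 3186, 3420 and 3205 (3.82, SE 0.78, adjusted p = 0.000173). The days did not overlap for any of these genes. Mast cell and basophil genes were divided, with 3 of 10 called higher, 1 lower and a median of 0.39. TPSB2, a tryptase, rose from 0, 5 and 0 to 44, 50 and 58 (4.82, SE 0.46, adjusted p = 2.25e-09). CPA3, a mast cell carboxypeptidase, went from 30, 40 and 26 to 112, 98 and 112 (1.73, SE 0.47, adjusted p = 0.00256), and HDC, which makes histamine, went from 1422, 1388 and 1004 to 492, 999 and 1247 (-0.56, SE 0.52, adjusted p = 0.372). GATA2, a transcription factor of mast cells and blood progenitors, went from 3890, 4472 and 4839 to 932, 1888 and 1724 (-1.6, SE 0.31, adjusted p = 7.96e-05). The stem cell factor receptor KIT fell from 1991, 2064 and 3108 to 316, 582 and 492 (-2.38, SE 0.37, adjusted p = 4.43e-06). Without day 9 replicate 2, day 12 replicate 1 or day 12 replicate 3, 2 of this list were called lower, as were 3 with an added constant of 0.1, and 1 was called higher with a constant of 10.

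Of 10 progenitor genes 4 were called lower (CD34, KIT, HLF and SPINK2) and 0 higher, with a median of -1.6. CD34, a sialomucin of blood progenitors and endothelium, fell from 3324, 2636 and 3517 to 328, 534 and 560 (-2.76, SE 0.34, adjusted p = 1.37e-07). SPINK2, a protease inhibitor, fell from 54, 44 and 27 to 2, 6 and 8 (-2.84, SE 0.48, adjusted p = 1.77e-05), and HLF, a transcription factor of stem cells, was at 14, 16 and 22 on day 9 and listed at 0 in all 3 samples of day 12. SPINK2 and HLF were low on both days and were not called with an added constant of 10, which left 2 called lower, as did requiring 100 or more in 3 samples. With a constant of 0.1, 1 was called higher.

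All 15 monocyte and macrophage genes were called higher, with a median of 5.4. CD163, the scavenger receptor for haemoglobin, rose from 51, 54 and 80 to 17368, 4720 and 2706 (6.62, SE 0.72, adjusted p = 1.87e-08). C1QA, a complement chain made by macrophages, rose from 10, 56 and 18 to 3984, 1600 and 1178 (6.42, SE 0.85, adjusted p = 4.73e-07). CD14, the lipopolysaccharide co-receptor, rose from 1, 8 and 17 to 3183, 1304 and 754 (7.74, SE 0.92, adjusted p = 8.04e-08), and FCGR3A, an IgG receptor, rose from 2, 3 and 4 to 3299, 2074 and 1232 (9.02, SE 1.02, adjusted p = 3.34e-08). Each of these genes was highest in day 12 replicate 1 and lowest of that day in replicate 3. CSF1R, the macrophage growth factor receptor, rose from 2865, 2510 and 2399 to 29020, 10439 and 10082 (2.49, SE 0.75, adjusted p = 0.00603). Without day 12 replicate 1 its change was 1.99, under 4-fold, and 14 of the 15 genes were called.

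Of 10 MHC class II genes 6 were called higher, with a median of 2.48. HLA-DRA, an antigen-presenting chain, rose from 12, 16 and 10 to 1990, 404 and 717 (5.95, SE 0.66, adjusted p = 2.18e-08), and CD74, the invariant chain, rose from 896, 1018 and 880 to 9460, 4098 and 4693 (2.61, SE 0.27, adjusted p = 5.74e-09). Without day 12 replicate 1, 5 were called and the median was 1.88. Of 14 inflammatory cytokines and chemokines 7 were called higher, with a median of 2.23. With an added constant of 0.1, 3 were called, and without day 9 replicate 1, day 9 replicate 3 or day 12 replicate 3 5 were called each time. CXCL8, the neutrophil chemoattractant, rose from 209, 262 and 153 to 3016, 2036 and 10442 (4.29, SE 0.81, adjusted p = 6.51e-05). IL1B, an inflammatory cytokine, rose from 242, 247 and 178 to 1020, 694 and 1547 (2.22, SE 0.91, adjusted p = 0.0404), but its call was lost without any 1 sample other than day 12 replicate 2, with changes from 1.93 without day 12 replicate 3 to 2.31 without day 9 replicate 2. Of 17 interferon response genes 4 were called higher, with a median of 1.14, among them IFI44L, from 7, 2 and 4 to 181, 32 and 13 (3.15, SE 0.65, adjusted p = 0.0002).

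Megakaryocyte and platelet genes had 0 of 16 called by limma, with a median of -0.66, and 2 higher and 3 lower members at an unadjusted p below 0.05. With the replicate block, a fit of only the populations compared or an added constant of 10, 1 was called higher. Without day 12 replicate 1 the median was -0.10, with 1 called higher, and without day 12 replicate 2 it was -1.05, with 1 called lower. PF4, platelet factor 4, went from 6818, 5906 and 7330 to 1752, 8272 and 5193 (-0.66, SE 0.90, adjusted p = 0.556). ITGA2B, the integrin chain CD41, went from 13319, 17356 and 15858 to 3207, 10832 and 8272 (-1.22, SE 0.45, adjusted p = 0.0226). GP9, a chain of the von Willebrand factor receptor, went from 1411, 1536 and 1670 to 636, 2324 and 1440 (-0.26, SE 0.67, adjusted p = 0.768), and its change was 0.25 without day 12 replicate 1, which was the lowest day 12 sample for these genes.

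That replicate also had the lowest globins and the highest macrophage genes. Its mean log2 level over the haemoglobin list was 6.76, against 8.19 and 7.33 in replicates 2 and 3. Over the macrophage list it was 12.5, against 11.1 and 10.7. Over the azurophil list the samples stood close together, at 13.3, 13.4 and 13.6.

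Cell division genes had 0 of 21 called by limma, with a median of -0.93. Of these, 18 were lower at an unadjusted p below 0.05, and the same number at an adjusted p below 0.05, all under 4-fold. CDK1, the mitotic kinase, went from 1912, 2036 and 1874 to 1264, 1028 and 1205 (-0.74, SE 0.25, adjusted p = 0.0135). MKI67, the proliferation marker, went from 8794, 8497 and 8497 to 8675, 7903 and 7154 (-0.12, SE 0.22, adjusted p = 0.66), and under median-of-ratios scaling its change was 0.0451. Of 45 histone genes taken by name 12 were called lower and 0 higher, with a median of -1.11.

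Markers of other cell types that the sort could hold were counted in the same way. Of 15 endothelial genes 4 were called lower (KDR, TEK, APLNR and SOX18), with a median of -1.2. KDR, the VEGF receptor, fell from 2974, 2484 and 5188 to 350, 549 and 280 (-3.16, SE 0.36, adjusted p = 3.32e-08), and TEK, the angiopoietin receptor, fell from 508, 576 and 426 to 28, 58 and 81 (-3.27, SE 0.35, adjusted p = 1.69e-08). CDH5, the endothelial cadherin, went from 440, 457 and 584 to 301, 171 and 186 (-1.2, SE 0.37, adjusted p = 0.00743). Of 16 mesenchymal and matrix genes 1 was called higher and 2 lower, with a median of 0.98. COL3A1, a fibrillar collagen, rose from 1076, 2478 and 13324 to 11200, 12848 and 29026 (2.29, SE 0.69, adjusted p = 0.00656), but not in a fit of only the populations compared (adjusted p = 0.0948) or without day 9 replicate 1 (1.49) or day 12 replicate 3 (1.87), and 4 matrix genes were called higher without day 9 replicate 3 and 2 without day 12 replicate 1. TWIST1, a mesenchymal transcription factor, fell from 68, 114 and 68 to 10, 3 and 4 (-3.76, SE 0.51, adjusted p = 6.11e-07). COL3A1 was at the ceiling in all 6 CD43- samples and below it in every CD43+ sample. The part of such cells in the changes of the sorted samples was not tested.

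Of 11 lymphoid genes 3 were called higher and 1 lower. IL7R, the interleukin-7 receptor, rose from 13, 16 and 16 to 1316, 702 and 644 (5.72, SE 0.53, adjusted p = 1.19e-09). CD3D, a chain of the T-cell receptor complex, fell from 174, 106 and 166 to 0, 1 and 2 (-6.33, SE 0.82, adjusted p = 3.13e-07). Of 6 pluripotency genes 1 was called higher and 2 lower, with a median of -1.96, and 4 were called lower without day 9 replicate 2 or day 12 replicate 1. NANOG was low throughout, at 4 in all 3 samples of day 9 and 27, 24 and 34 on day 12 (2.54, SE 0.69, adjusted p = 0.00283), and was not called with an added constant of 0.1 or 10. ZSCAN10, a factor of stem cells, was at 8, 4 and 10 and then listed at 0 in all 3 samples. Of 12 immediate early and heat shock genes 1 was called, HSPH1, a heat shock protein, which fell from 5196, 6143 and 5706 to 1108, 1384 and 1561 (-2.08, SE 0.22, adjusted p = 1.38e-08) and was not called without day 12 replicate 1 (-1.95) or under median-of-ratios scaling (-1.91).

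Genes outside the lists were chosen by the size of their change, leaving out genes with clone-based, LINC or pseudogene-like names, some of which changed more than genes given here (clone-based names ranged from -6.22 to 11.38), and genes whose days overlapped. Among the largest rises so chosen was MNDA, a nuclear antigen of myeloid cells, which rose from 6, 34 and 14 to 9900, 7911 and 9726 (9.21, SE 0.78, adjusted p = 2.44e-10). The falls so chosen were of varied kinds. RELN, the secreted matrix glycoprotein reelin, fell from 48056, 6589 and 10084 to 96, 89 and 106 (-7.24, SE 0.60, adjusted p = 1.42e-10). SLC30A10, a manganese exporter, fell from 459, 126 and 330 to 1, 0 and 2 (-7.21, SE 0.53, adjusted p = 1.5e-11), and KIF5A, a kinesin motor, fell from 146, 38 and 152 to 0, 0 and 1 (-6.25, SE 0.54, adjusted p = 3.58e-10). The noradrenaline transporter SLC6A2 stood at 80, 141 and 117 on day 9, the incretin receptor GLP1R at 112, 82 and 106 and the phosphate hormone FGF23 at 68, 69 and 74. Each was listed at 0 in all 3 samples of day 12. BOLA2, an iron-sulphur cluster protein, fell from 604, 562 and 562 to 6, 10 and 6 (-6.15, SE 0.41, adjusted p = 2.89e-12), but it was one of the 64 genes set apart in the day 12 samples. In CD43- cells it went from 243, 188 and 245 to 0, 6 and 0, and on day 16 it was at 190, 203 and 210 in CD43+/CD45+ cells.

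Genes with clone-based names were called higher in 18.6% of 2513 tested and lower in 7.32%, against 6.57% and 6.54% of 16324 protein-coding genes. Of the clone-named genes called higher, 55.03% were also called higher in CD43- cells, against 26.7% of the protein-coding ones. These shares stand against unlike backgrounds. In CD43- cells 355 of all 2513 clone-named genes and 455 of all 16324 protein-coding genes were called higher. The excess of rises did not last. From day 12 to day 16, 142 of the 2513 were called higher and 529 lower, against 3.79% and 5.26% of all genes. From day 9 to day 16, 173 were called higher and 225 lower, against 7.82% and 6.22% of all genes. MTRNR2L4 and NRSN1, both picked after their values were seen, rose in CD43+ cells (7.88 and 7.42) and in CD43- cells (6.83 and 7.05). Like BOLA2, both were set apart in the day 12 samples, CD43+ and CD43- alike, but as higher. There MTRNR2L4 was at 80 or higher and NRSN1 at 108 or higher. In every other sorted sample both were at 3 or lower. In CD43+/CD45+ cells of day 16 MTRNR2L4 was at 0, 1 and 1 and NRSN1 at 0 in each sample. Whether these rises belong to the day or to the sequencing run was not tested.

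**Figure D3:**
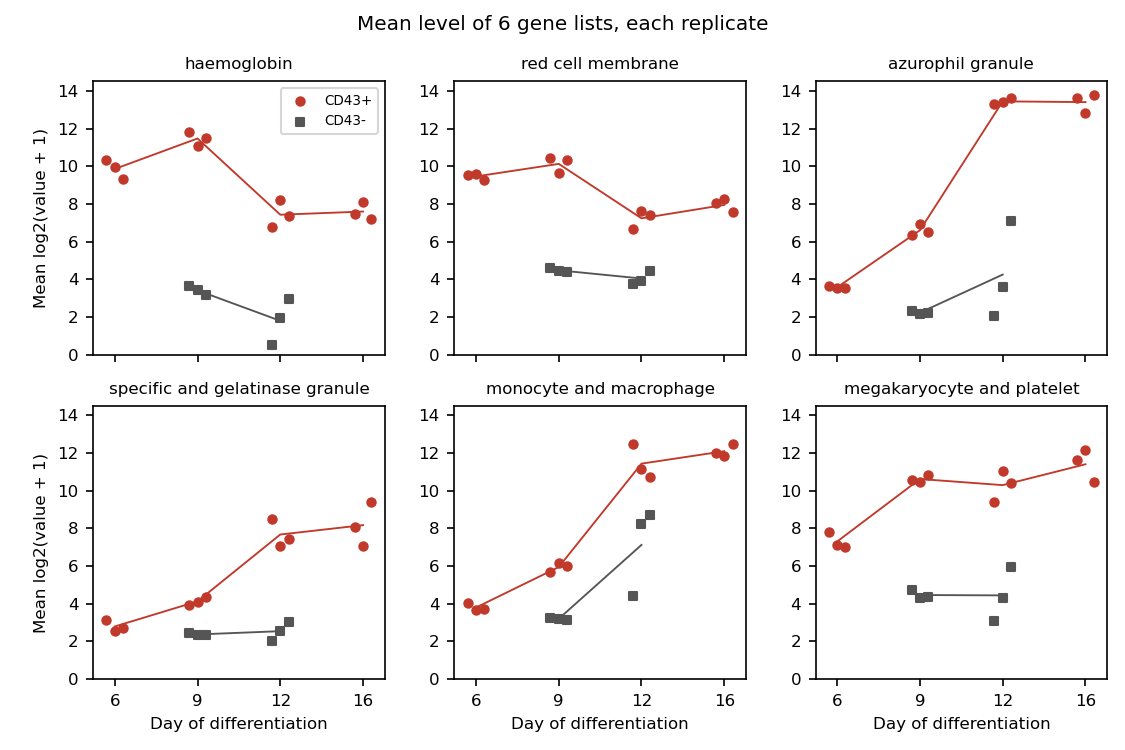
Mean log2(value + 1) of 6 gene lists (y axis) by day of differentiation (x axis), each point a replicate, for CD43+ cells of days 6 to 16 (CD43+/CD45+ on day 16) and CD43- cells of days 9 and 12. In every CD43+ replicate the haemoglobin list stands lower and the azurophil and macrophage lists higher on day 12 than on day 9.

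The same interval in CD43- cells shows which changes were shared. There, 1450 genes were called (7.33% of those tested), 895 higher (4.52%) and 555 lower (2.80%). Of the 1673 genes called higher in CD43+ cells, 610 were also called higher in CD43- cells, which is 36.5% of the former and 68.2% of the latter list. Of the 1295 called lower, 183 were also lower in CD43- cells (14.1% and 32.97%). The test of the difference between the changes called 1781 genes (9.0%), 912 with the higher change in CD43+ cells (4.61%) and 869 with the lower (4.39%). Blood genes were present in CD43- samples of day 12, where PTPRC was at 4, 197 and 371 against 4, 2 and 4 on day 9, and SPN at 122, 120 and 235 against 18, 32 and 19. The mean log2 level of the macrophage list was 4.43 in CD43- replicate 1 of day 12 and 8.24 and 8.71 in replicates 2 and 3. The part of these cells in the CD43- changes was not tested.

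On the log2 scale red cell membrane genes fell more in CD43+ cells, but several had little room to fall in CD43- cells. The difference was called lower for 14 of 22 members, and the CD43- median was -0.33. On day 9 CD43- cells held SLC4A1 at 5, 14 and 6 and RHAG at 8, 2 and 6, so a fall there could hardly be seen. GYPB went from 2, 3 and 1 to 0, 0 and 1 in CD43- cells, and the difference was -4.04 (SE 0.71, adjusted p = 0.000107). For haemoglobin the difference was called lower for 4 of 11. Among them were AHSP, HBB and HBG1, which were at 0 in all 3 CD43- samples of day 9. HBE1 went from 238, 164 and 130 to 2, 25 and 78 in CD43- cells, and its difference was not called (-0.85, SE 0.95, adjusted p = 0.55). SLC25A37 went from 786, 768 and 853 to 1714, 1936 and 2338 in CD43- cells, opposite to its CD43+ change, and its difference was called (-2.65, SE 0.19, adjusted p = 1.99e-10).

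Granule genes rose more in CD43+ cells. The difference was called higher for 9 of 14 azurophil and 10 of 15 specific and gelatinase granule genes, whose CD43- medians were 1.86 and 0.00. ELANE went from 0 in all 3 samples to 1, 2 and 11 in CD43- cells, with a difference of 7.64 (SE 0.78, adjusted p = 5.27e-08). PRTN3 went from 0, 0 and 1 to 0, 22 and 1172, and its difference was not called (0.32, SE 1.79, adjusted p = 0.922). GLT1D1, a gene outside the lists, rose in CD43+ cells from 1, 2 and 3 to 501, 348 and 402 (7.16, SE 0.32, adjusted p = 1.27e-15) and went from 24, 30 and 23 to 20, 12 and 10 in CD43- cells, with a difference of 8.04 (SE 0.45, adjusted p = 2.65e-12).

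Macrophage genes rose in both populations. In CD43- cells 11 of 15 were called higher, with a median of 4.13, and the difference was called higher in CD43+ cells for 6 and lower for 1. C1QA went from 0 in all 3 samples to 12, 410 and 502 in CD43- cells, and its difference was not called (-0.70, SE 1.21, adjusted p = 0.72). CD163 went from 16, 22 and 12 to 32, 936 and 838 (difference 2.52, SE 1.02, adjusted p = 0.0675). The difference was called for CD14 (3.71, SE 1.3, adjusted p = 0.0341). For the NADPH oxidase list it was called for 0 of 6 by limma, with 1 higher and 1 lower at an unadjusted p below 0.05.

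**Figure D4:**
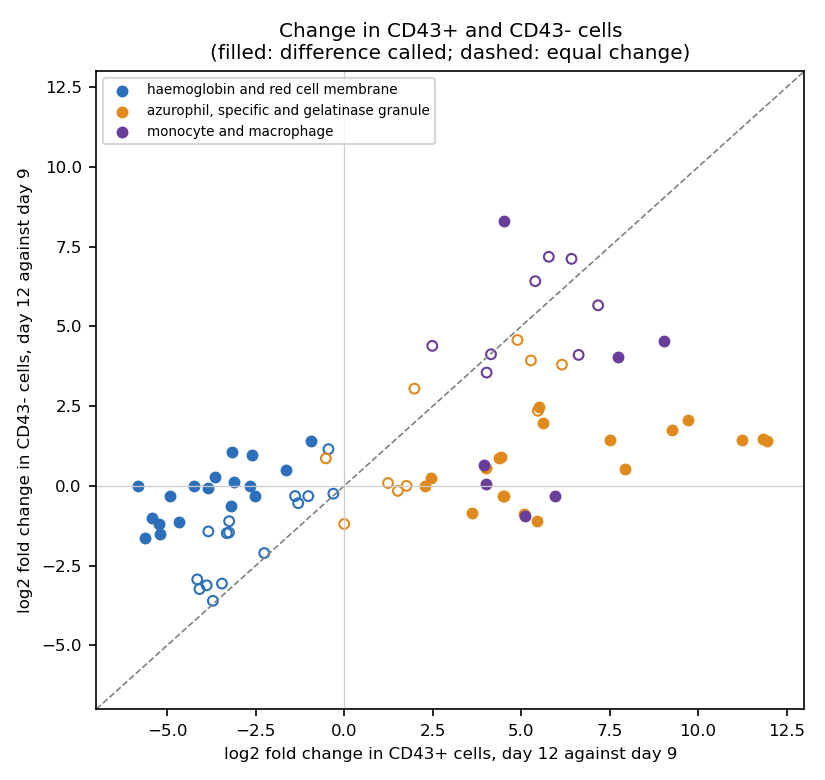
Log2 fold change, day 12 against day 9, in CD43+ cells (x axis) and CD43- cells (y axis) for members of 5 gene lists, each point a gene, filled where the difference between the changes was called; the dashed line marks equal change. Granule genes extend along the x axis, and the 11 macrophage genes called higher in CD43- cells lie high on both axes, whereas the other 4 lie close to 0 on the y axis.

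In all, 19 genes called in CD43+ cells were called in the opposite direction in CD43- cells. EGR4, an early growth response factor, was one of them. It fell in CD43+ cells from 52, 206 and 192 to 6, 17 and 13 (-3.41, SE 0.77, adjusted p = 0.00052) and went from 4, 12 and 10 to 34, 69 and 215 in CD43- cells (3.18), with a difference of -6.59 (SE 1.09, adjusted p = 5.15e-05). RELN and ST6GALNAC1 are not among the 19, since neither was called in CD43- cells. RELN went from 2302, 12848 and 3138 to 10084, 10840 and 6702 there (0.99, SE 0.60, adjusted p = 0.199), with a difference of -8.23 (SE 0.84, adjusted p = 5.61e-08). ST6GALNAC1, a sialyltransferase, fell in CD43+ cells from 326, 235 and 252 to 3, 14 and 20 (-4.64, SE 0.55, adjusted p = 6.98e-08) and went from 1, 4 and 3 to 12, 10 and 14 in CD43- cells (1.91, SE 0.55, adjusted p = 0.00744), with a difference of -6.55 (SE 0.77, adjusted p = 4.61e-07).

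Neighbouring intervals are given side by side only, since they share the day 9 or day 12 samples, and day 16 was sorted by another gate. Between days 6 and 9, 7.53% of genes were called (3.56% higher, 3.97% lower), between days 12 and 16, 9.05% (3.79% and 5.26%), and between days 9 and 16, 14% (7.82% and 6.22%). The haemoglobin median was 1.55 for day 9 against day 6, -3.89 for day 12 against day 9 and 0.58 for day 16 against day 12. The azurophil medians were 2.38, 5.57 and -0.06 in the same order. The macrophage medians were 2.75, 5.4 and 0.77. Megakaryocyte genes had medians of 3.03, -0.66 and 1.06, and progenitor genes 0.13, -1.6 and 2.1. HBE1 was at 90700 in all 3 samples of day 6 and 7780, 8977 and 3658 on day 16. Other globins moved apart after day 12. On day 16 HBG2 was at 22812, 37166 and 11498 (1.98 against day 12, not called). HBZ was at 163, 158 and 302 (-3.88 against day 12, called lower). ELANE was listed at 0 in all 3 samples of day 6 and stood at 6912, 3298 and 6242 on day 16. Against day 9, the day 16 medians were -3.47 for haemoglobin, 5.7 for azurophil and 6.66 for macrophage genes.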

How the data were processed

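RNA of 34 samples was sequenced, and the 6 CD43+ samples of days 9 and 12 carry the comparison. Per the methods of the study, reads were processed with bowtie2 and RSEM on Ensembl 81 annotations and normalized with EDASeq. The submitters' processing notes also name hg38, STAR 2.7 and bcl2fastq, whose part in the table is not given in the sources used here. The deposited values are a score, GC-normalized tag counts that the authors made, with identical sorted values in all 34 samples, so depth is unknown. The authors also deposited the GC percent of each gene, which was not used.

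Of all genes, 19788 reached 10 or more in 3 or more samples and were tested, and 467 were not. log2(value + 1) was modelled by limma 3.58.1 under R 4.3.3 (lmFit, contrasts, eBayes with trend) over 33 samples in 11 groups sharing 1 estimate of the spread. The undifferentiated sample had no replicate. The CD43+ change, the CD43- change and their difference were contrasts of this model. Named genes were core members of 27 gene lists, the largest called rise and fall of each list, the 8 largest rises and falls over all genes whose days did not overlap and the 5 largest differences each way, both over all genes leaving out clone-based, LINC and pseudogene-like names. A few genes that the rule names are not reported here, though list counts include them. The comparison and the lists were chosen with earlier results of these data known. Promoters are from RefSeq (GRCh38.p14) and gene types from GENCODE 29. Strand use in counting is not given in the sources used here, so overlapping and antisense genes cannot be told apart. Alternatives were other added constants, filters, fold thresholds and scalings, a replicate block, smaller fits and each sample left out.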

Additional observations from a re-analysis of the deposited data

Results flagged for a closer look

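The change between day 9 and day 12 differed between CD43+ and CD43- cells for 50 named genes, by limma's test of the difference at an adjusted p below 0.05 and over 4-fold. The value is the CD43+ change minus the CD43- change on the log2(value + 1) scale, and where a group was listed at 0 it depends on the added 1 and is no bound. AHSP, HBB, CA1, SPINK2, CD3D, GLP1R and TPSB2 were listed at 0 in all 6 CD43- samples, so their value is the CD43+ change alone, a fall in CD43- cells could not be seen, and for them the test says nothing of how CD43- cells changed. HBG1 was at 0 in all 3 CD43- samples of day 9. ALAS2, GYPB, KIF5A, PKLR, SLC30A10 and SLC4A1 were at 14 or lower there, which limited the fall that could be seen. In 26 genes the CD43+ change was the lower. For haemoglobin and its chaperone, it was -5.83 for AHSP, -4.25 for HBB and -4.21 for HBG1. For haem synthesis and mitochondrial iron, it was -2.06 for ALAS2 and -2.65 for SLC25A37. For red cell membrane genes, it was -2.58 for ANK1, -4.04 for GYPB and -3.93 for SLC4A1. For other erythroid or megakaryocytic genes, it was -4.03 for CA1, -2.21 for EPOR, -3.39 for PKLR and -2.46 for ITGA2B. For progenitor, endothelial and mesenchymal genes, it was -2.79 for KIT, -2.84 for SPINK2, -2.48 for KDR, -2.32 for TEK and -2.17 for TWIST1. For CD3D and genes outside the lists, it was -6.33 for CD3D, -6.59 for EGR4, -6.54 for FGF23, -6.65 for GLP1R, -4.69 for KIF5A, -8.23 for RELN, -7.15 for SLC30A10, -4.78 for SLC6A2 and -6.55 for ST6GALNAC1. In 24 genes the CD43+ change was the higher. For azurophil granule genes, it was 3.03 for AZU1, 3.45 for CTSG, 9.8 for DEFA1, 10.38 for DEFA1B, 10.54 for DEFA3, 7.53 for DEFA4, 7.64 for ELANE and 3.64 for MS4A3. For specific granule genes, it was 4.83 for LTF and 7.4 for OLFM4. For S100 genes and CEBPE, it was 3.81 for S100A8, 9.16 for S100A12 and 2.63 for CEBPE. For receptor, macrophage and antigen presentation genes, it was 3.71 for CD14, 4.49 for FCGR3A, 7.49 for FCGR3B, 2.34 for CD74 and 2.92 for HLA-DRA. For eosinophil and mast cell genes, it was 4.57 for EPX and 4.82 for TPSB2. For the remaining genes, it was 2.01 for HFE, 3.46 for IL7R, 8.04 for GLT1D1 and 6.82 for MNDA. Groups of 3 were not tested for outlying samples.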

How the results depend on the processing

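With an added constant of 10 the calls were 1510 in CD43+ cells (969 up, 541 down), 1090 for the difference and 384 in CD43- cells, against 2968 (1673 and 1295), 1781 and 1450. Requiring 100 or more in 3 samples gave 1806 (956 and 850) in CD43+ and 652 in CD43- cells. A fold change above 2 gave 6371 (3030 and 3341), 3433 and 3538. A fit of only the populations compared gave 801 in CD43- cells. Protein-coding genes alone, chosen after seeing the data, gave 1072 higher in CD43+ cells and 821 calls in CD43- cells. Leaving out 1 sample gave 2737 to 3162 calls in CD43+ cells (1539 to 1742 up, 1198 to 1420 down), 1609 to 1907 for the difference and 1347 to 1807 in CD43- cells. Median-of-ratios scaling moved the median of all genes from -0.15 to 0 and gave 1837 up and 1091 down. The replicate numbers were not taken to pair the days within a fraction. Same-numbered deviations correlated at -0.0052, 0.0126 and -0.0096 in CD43+ and at 0.1483, 0.3701 and 0.0234 in CD43- cells, not all over 0.1. Differently numbered ones ran from -0.3162 to 0.2505 in CD43- cells, so pairing there was not settled. Whether replicate numbers pair the CD43+ and CD43- samples of a day was not tested, and the test of the difference treats those samples as independent. Day 12 replicate 1 of CD43- cells correlated better with day 9 replicate 3 (0.2505) than with its own number, and the replicate block gave 2976 calls in CD43+ cells, 1849 for the difference and 1460 in CD43- cells. The sign turned for MKI67 under median-of-ratios scaling (0.0451). It also turned for GP9 (-0.68 to 0.25 with 1 sample left out, the latter without day 12 replicate 1) and for the lymphoid median (-0.13 to 0.44, lowest without day 9 replicate 3, and -0.11 without day 12 replicate 1). Of 1736 alternative values of named genes 29 lost and 3 gained a call, and of 378 alternative list medians 13 moved beyond the spread between replicates. CEBPE, HBA1, HBG1, HBG2, IL1B, NANOG and PRG2 lost their call with an added constant of 0.1, and FECH, HBB, HLF, NANOG, SPINK2 and ZSCAN10 with 10. The cause was not tested. Unknown depth leaves genes near 0 without a limit of detection.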

Other observations

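A few genes outside the rule for named genes were chosen after their values were seen. IGF1, a growth factor, stood in CD43+ cells at 1, 1 and 4 on day 9 and 1902, 230 and 182 on day 12 (7.31), and changed by 0.53 in CD43- cells, with a limma difference of 6.78 (adjusted p = 6.18e-05). MRC1, the mannose receptor of macrophages, stood at 128, 256 and 103 and then 17373, 3576 and 2278 in CD43+ cells (5.11), and at 1986, 557 and 1027 and then 138, 1105 and 1065 in CD43- cells, with a limma difference of 6.04 (adjusted p = 5.24e-05). ALB, the albumin gene, was at 16, 70 and 984 in CD43+ cells of day 9 and at 4, 2 and 0 on day 12.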
